A study of Mus musculus with 8 samples.

Results

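The endothelial and angiogenesis genes examined were Pecam1, Cd34, Cdh5, Kdr, Tek, Tie1, Eng, Vwf, Vegfa and Vegfc. They were taken by symbol, as genes known from blood vessel endothelium or from vessel growth, and all 10 were found among the 750 genes of the panel. Their transcripts were counted in peritoneal tumors of MC38, a mouse colon carcinoma cell line, to compare tumors of mice treated with a STING agonist with those of PBS-treated control mice. RNA extracted from whole tumor tissue was measured on the mouse PanCancer Immune Profiling panel of the NanoString nCounter system, in which barcoded probes are counted on RNA molecules without amplification.

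All mice were wild-type male C57BL/6 animals, 7 to 8 weeks old when obtained, and carried 500000 MC38 cells placed in the peritoneal cavity. The STING agonist group (4 tumors) received, from day 7 after implantation, 2 intraperitoneal injections of 15 µg RR-CDA, a synthetic cyclic dinucleotide that activates STING. The PBS control group (4 tumors) received PBS instead, and the tumors were analyzed 10 days after the first injection. The model rests on a single cell line in an otherwise intact host, so each sample mixed RNA of tumor cells with RNA of host vessels, stroma and immune cells. The labels give the tissue as colon, whereas the tumors grew in the peritoneum. Epcam, an adhesion molecule of epithelium, lay at 3.70 to 17.5 normalized counts, near the background, and Cdh1, the epithelial cadherin, at 11 to 34.6. The tumors came from more than 1 experiment, and which tumor belonged to which experiment is not given in the sources used here, so no value within an experiment could be computed. Nothing in the labels says that the tumors of a group came from separate mice, and p-values measure only the spread between these samples.

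Total counts over the 750 genes were 241724 to 403150 in the PBS controls and 241506 to 414698 in the STING agonist-treated tumors. PBS controls 2 and 4 differed by less than the sampling noise (chi-square of 0.499 per degree of freedom over 320 genes, against 5.42 to 14.9 in the 11 other pairs within a group). Their mean was therefore counted as 1 sample, and the comparison is between 3 PBS control samples and 4 treated tumors. Normalized counts are counts divided by the geometric mean of the 20 housekeeping probes of the same tumor, set to an average of 1 over the samples. The background, taken as 2 SD above the mean of the negative probes, averaged 8.62 counts, and all 10 members had a mean count above it. Probes differ in how well they bind, so the levels of different genes are not compared.

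Blood vessels grow when endothelial cells respond to secreted ligands of the VEGF family, which bind receptor tyrosine kinases on their surface, and the angiopoietins act on a separate receptor pair, Tek and Tie1, that governs the stability of vessels. The cells are held together by junction proteins such as VE-cadherin (Cdh5) and PECAM-1 (Pecam1, also known as CD31), and store von Willebrand factor (Vwf) for clotting. Vessels of tumors are often leaky and poorly covered by pericytes, the mural cells that wrap capillaries.

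Across the panel the treated tumors had more genes with higher than with lower counts. A positive log2 fold change (STING agonist over PBS) was found for 531 genes (70.8%), and the median over all 750 genes was 0.21. No gene passed an adjusted p of 0.05 in edgeR's quasi-likelihood test (0 of 750, 0%; the lowest adjusted p was 0.171), while 143 genes (19.1%) had an unadjusted p under 0.05, of which 133 (17.7%) were higher and 10 (1.33%) lower after treatment. The Wald test of DESeq2 called 52 genes at an adjusted p under 0.05, and limma called 0. The shift depended on the scale. The median of all genes was -0.02 under TMM normalization, -0.04 with DESeq2 size factors and 0.01 with the total count, and the genes at an unadjusted p under 0.05 were then 87 higher and 40 lower, 81 and 45, and 68 and 31.

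Of the 10 endothelial and angiogenesis genes, 0 passed an adjusted p of 0.05 in edgeR's quasi-likelihood test (0% of the panel did), and 2, Kdr and Eng, had an unadjusted p under 0.05 with higher counts after treatment, a share of 20% beside 17.7% of the panel. The same 2 genes had 4 of 4 treated tumors above every PBS control, as had 16.8% of the panel. The members' shares were thus close to those of the panel. Under DESeq2's Wald test 1 member, Kdr, had an adjusted p under 0.05 (6.93% of the panel did), and under limma 0 (0%). The median log2 fold change of the members was 0.44, which is 0.23 above the median of all genes (0.20 above it under TMM normalization). Without PBS control 1 the members' median was 0.27, which is 0.10 above that of all genes, and without PBS control 3 it was 0.45, which is 0.09 above it. A positive value was found for 9 of 10 members, beside 70.8% of the panel, and under TMM normalization for 6 of 10, beside 47.9%. Set against the median of all genes, 7 members lay above it on the housekeeping scale, under TMM normalization and with DESeq2 size factors, and 8 with the total count. In tissue RNA, the number of endothelial cells and the RNA of each cannot be told apart.

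**Figure D1:**
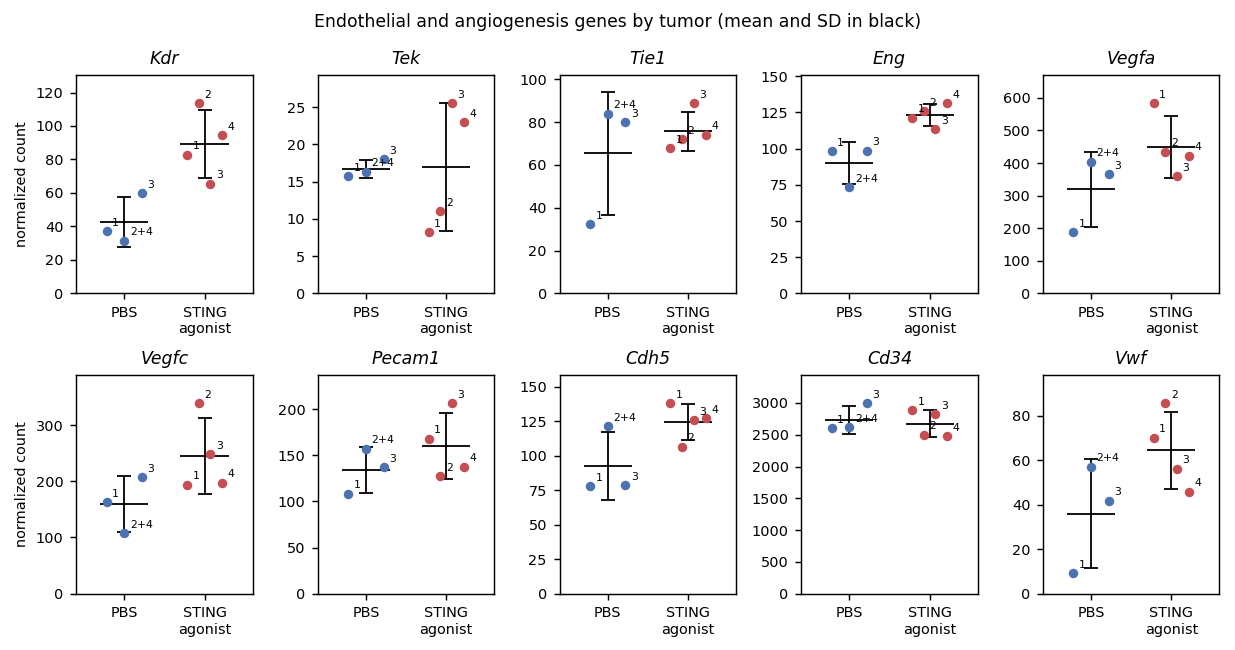
Normalized counts of the 10 genes (y axis, from 0) in each tumor by group (x axis); points are tumors with their replicate number, PBS controls 2 and 4 are 1 point, and black bars give mean and SD. Kdr (65.4 to 114 against 31.5 to 59.8) and Eng (113 to 131 against 73.4 to 98.7) are the panels in which the groups do not overlap, and PBS control 1 lies far below the other controls for Tie1 (32.4) and Vwf (9.25).

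Kdr encodes VEGFR2, the main signaling receptor for VEGF-A on blood vessel endothelium. It had 37.0 normalized counts in PBS control 1, 31.5 in the averaged controls 2 and 4 and 59.8 in PBS control 3, and 82.9, 114, 65.4 and 94.4 in STING agonist-treated tumors 1 to 4. All 4 treated tumors lay above all controls, with treated tumor 3 closest to PBS control 3. The mean went from 42.8 ± 15 (SD, n = 3) to 89.1 ± 20.3 (SD, n = 4), a fold change of 2.08. The log2 fold change was 1.05 (SE 0.31, edgeR adjusted p = 0.181), which is 0.83 above the median of all genes and 0.88 above it under TMM normalization. The two-sided exact permutation test gave p = 0.029, the smallest that 35 arrangements of 3 against 4 samples allow. Over 21 alternatives the log2 fold change lay between 0.80 and 1.38, with an unadjusted p under 0.05 in all 21, and the adjusted p between 0.0321, the value of DESeq2's Wald test, and 0.407.

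Eng encodes endoglin, a co-receptor for ligands of the TGF-beta family that is abundant on proliferating endothelium and is also found on some macrophages and stromal cells. It had 98.1, 73.4 and 98.7 normalized counts in PBS control 1, controls 2 and 4, and control 3, and 121, 126, 113 and 131 in treated tumors 1 to 4. The groups did not overlap, and the treated tumors lay close together. The mean went from 90.1 ± 14.4 (SD, n = 3) to 123 ± 7.62 (SD, n = 4), a fold change of 1.37, with a log2 fold change of 0.45 (SE 0.19, edgeR adjusted p = 0.250) and p = 0.029 in the exact permutation test. The unadjusted p was under 0.05 in 10 of 21 alternatives. It was 0.274 under TMM normalization, where the log2 fold change was 0.22, and it was above 0.05 when any of PBS control 1 (0.0581), PBS control 3 (0.0512) or treated tumor 1 (0.0827), 2 (0.0737), 3 (0.0652) or 4 (0.111) was left out, or PBS controls 2 and 4 together (0.131).

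The angiopoietin receptor pair did not separate the groups. Tek, the receptor also known as TIE2, had 15.7, 16.3 and 18 normalized counts in the PBS controls and 8.18, 11, 25.5 and 22.9 in treated tumors 1 to 4. The treated tumors fell on both sides of the controls, 2 below and 2 above. The raw counts were 7 to 26, where the highest count of a negative control probe was 11, so a difference in Tek was hardly measurable at this depth. Its log2 fold change of 0.03 (SE 0.44, edgeR adjusted p = 0.987) was -0.20 under TMM normalization, 0.26 without treated tumor 1 and -0.23 without treated tumor 3.

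Tie1, the partner receptor of Tek, had 32.4 normalized counts in PBS control 1, 83.9 in controls 2 and 4 and 80.0 in control 3, and 67.7, 72.1, 88.9 and 74.1 after treatment. PBS control 1 stood apart, and the other controls lay within or near the range of the treated tumors. The log2 fold change of 0.21 (SE 0.34, edgeR adjusted p = 0.813), close to the median of all genes, was -0.11 without PBS control 1, 0.42 without PBS controls 2 and 4 and -0.02 under TMM normalization.

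Promoter sequence was looked up for the members because Kdr and Eng had the same pattern over the groups and Tie1, also an endothelial receptor gene, did not. The RefSeq table (GRCm38.p6) held 7 of the 10 genes (Cd34, Eng, Tek, Tie1, Kdr, Vegfc and Vegfa); Pecam1, Cdh5 and Vwf were not among them. The 250 bases before the annotated gene start are given 5′ to 3′ on the strand of the gene for Kdr (chr5:75978456-75978705, minus strand), Eng (chr2:32646345-32646594, plus strand) and Tie1 (chr4:118489850-118490099, minus strand). Capitals mark the letters AGGAAG and CCGGAA, which hold the GGAA core bound by ETS factors, a family with central roles in endothelium, and GGGCGG, the GC box, each on either strand.
Kdr: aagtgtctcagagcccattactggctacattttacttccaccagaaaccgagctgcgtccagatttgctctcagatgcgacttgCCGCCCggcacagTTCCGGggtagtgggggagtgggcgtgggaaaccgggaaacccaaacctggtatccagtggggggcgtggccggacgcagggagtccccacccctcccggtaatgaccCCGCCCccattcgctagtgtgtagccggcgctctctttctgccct
Eng: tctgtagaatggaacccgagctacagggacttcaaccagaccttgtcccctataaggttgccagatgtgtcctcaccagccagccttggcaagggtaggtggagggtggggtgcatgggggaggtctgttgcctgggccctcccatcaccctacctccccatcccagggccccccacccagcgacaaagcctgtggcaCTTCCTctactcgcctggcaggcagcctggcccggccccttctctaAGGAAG
Tie1: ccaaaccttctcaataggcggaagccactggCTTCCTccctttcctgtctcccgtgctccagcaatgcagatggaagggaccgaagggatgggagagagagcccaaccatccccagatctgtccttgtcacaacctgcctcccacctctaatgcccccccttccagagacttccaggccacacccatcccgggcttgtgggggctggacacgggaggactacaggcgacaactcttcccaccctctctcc
Kdr held CCGGAA at -153 and GGGCGG at -166 and -45, counted from the gene start to the first base of the match. Eng held AGGAAG at -52 and -6, and Tie1 held it at -219. Tek, a receptor gene that also did not separate the groups, held 0 matches to these 3 motifs. The matches did not overlap each other. Among 32851 upstream windows of 250 bases in the table, 29.5% held AGGAAG, 12% CCGGAA and 32.7% GGGCGG, and of the 7 member genes 3, 1 and 3 did. The letters TTCNNNGAA, the GAS element of STAT factors, were found in 0 member genes and 7.02% of windows, and ACGTG, the core of the hypoxia response element, in 1 (Vegfa, at -211 from 1 of its starts) and 16.6%. AGATAA, bound by GATA factors, was found in 1 member gene (Vegfa) and 9.99% of windows. A match describes letters only.

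The VEGF ligands had higher means after treatment, with overlapping groups. Vegfa, which encodes the main ligand of VEGFR2 and is made by many cell types including tumor cells, had 187, 404 and 365 normalized counts in the PBS controls and 584, 435, 360 and 423 in treated tumors 1 to 4. Treated tumor 1 was the highest and PBS control 1 the lowest, while treated tumor 3 lay below 2 of the 3 control samples. The mean went from 319 ± 116 (SD, n = 3) to 450 ± 95 (SD, n = 4), a fold change of 1.41, with a log2 fold change of 0.50 (SE 0.28, edgeR adjusted p = 0.362). Without PBS control 1 the log2 fold change was 0.23, and without PBS controls 2 and 4 it was 0.70. It was 0.24 under TMM normalization and 0.32 with the total count.

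Vegfc encodes a ligand best known for the growth of lymphatic vessels through VEGFR3, and this ligand also binds VEGFR2. It had 163, 107 and 207 normalized counts in the PBS controls and 194, 339, 248 and 198 after treatment. Treated tumors 1 and 4 lay below PBS control 3, and treated tumor 2 was well above all others. The mean went from 159 ± 50.2 (SD, n = 3) to 245 ± 67.4 (SD, n = 4), a fold change of 1.54, with a log2 fold change of 0.61 (SE 0.28, edgeR adjusted p = 0.274). This was 0.42 without treated tumor 2, 0.40 without PBS controls 2 and 4 and 0.85 without PBS control 3, and the unadjusted p was under 0.05 in 5 of 21 alternatives.

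The junction and adhesion genes also overlapped between groups. Pecam1 had 108, 157 and 137 normalized counts in the PBS controls and 168, 127, 206 and 138 after treatment. Treated tumors 2 and 4 lay within the range of the controls. Its log2 fold change of 0.25 (SE 0.23, edgeR adjusted p = 0.597) was 0.12 without PBS control 1, 0.38 without PBS controls 2 and 4, 0.11 without treated tumor 3, 0.35 without treated tumor 2 and -0.0013 under TMM normalization. Cdh5, the gene of VE-cadherin, had 77.7, 121 and 78.5 normalized counts in the PBS controls and 138, 106, 126 and 127 after treatment. Of the treated tumors, 3 lay above all controls, and treated tumor 2 lay below PBS controls 2 and 4. The log2 fold change was 0.43 (SE 0.23, edgeR adjusted p = 0.341), 0.15 under TMM normalization and 0.67 without PBS controls 2 and 4.

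Cd34, a sialomucin of endothelium and of stromal and hematopoietic progenitor cells, varied little between tumors. It had 2607, 2617 and 2993 normalized counts in the PBS controls and 2882, 2504, 2826 and 2480 after treatment, a fold change of 0.976. The log2 fold change was -0.04 (SE 0.13, edgeR adjusted p = 0.925), 0.03 without PBS control 3 and -0.28 under TMM normalization. Its difference from the median of all genes was -0.25 on the housekeeping scale and -0.26 under TMM normalization.

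Vwf, the gene of the clotting factor stored in endothelial cells and in platelets, was the most variable member among the controls. It had 9.25 normalized counts in PBS control 1, near the background, 57.1 in controls 2 and 4 and 41.8 in control 3, and 70.1, 85.6, 56.2 and 45.9 after treatment. The mean went from 36 ± 24.4 (SD, n = 3) to 64.4 ± 17.2 (SD, n = 4), a fold change of 1.79. The log2 fold change of 0.84 (SE 0.53, edgeR adjusted p = 0.419) was 0.38 without PBS control 1 and 1.31 without PBS controls 2 and 4. Of 7 listed platelet genes, 3 were on the panel (Itga2b, Ppbp and Itgb3), their median log2 fold change was -0.22 (0.01 without PBS control 3 and -0.51 without PBS control 1), 0 had an unadjusted p under 0.05 in edgeR, and their summed counts were 55.5, 80.4 and 82.9 in the controls and 52.6, 52.6, 85.8 and 67.1 after treatment. Ppbp, a platelet chemokine, had a log2 fold change of -0.22 (SE 0.45), and Itga2b, the platelet integrin, lay near the background at 2.34 to 13.2. The part of platelets in the values of Vwf was not tested.

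Summed over the 7 endothelial markers (Pecam1, Cdh5, Tie1, Tek, Kdr, Eng and Vwf), the normalized counts were 378, 541 and 514 in the PBS controls and 656, 642, 682 and 634 in the treated tumors, or 478 ± 87.0 (SD, n = 3) and 653 ± 21.1 (SD, n = 4). All 4 treated tumors lay above the controls in this sum, in which Pecam1 holds the most counts, on the housekeeping scale. Under TMM normalization the sums were 446, 698 and 496 in the controls and 578, 695, 675 and 568 after treatment, with overlapping groups, and they overlapped as well with DESeq2 size factors and the total count. The sums over all 10 members, mostly Cd34, were 3335, 3669 and 4080 in the controls and 4317, 3919, 4115 and 3734 after treatment on the housekeeping scale, with overlapping groups. Pecam1, Cdh5, Tie1 and Tek together gave a mean log2 normalized count of 5.91 ± 0.33 (SD) in the controls and 6.14 ± 0.27 (SD) after treatment, with overlapping groups. PBS control 1 was the lowest sample for 5 members (Pecam1, Cdh5, Tie1, Vwf and Vegfa), and the averaged PBS controls 2 and 4 were the lowest for 3 (Kdr, Eng and Vegfc).

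**Figure D2:**
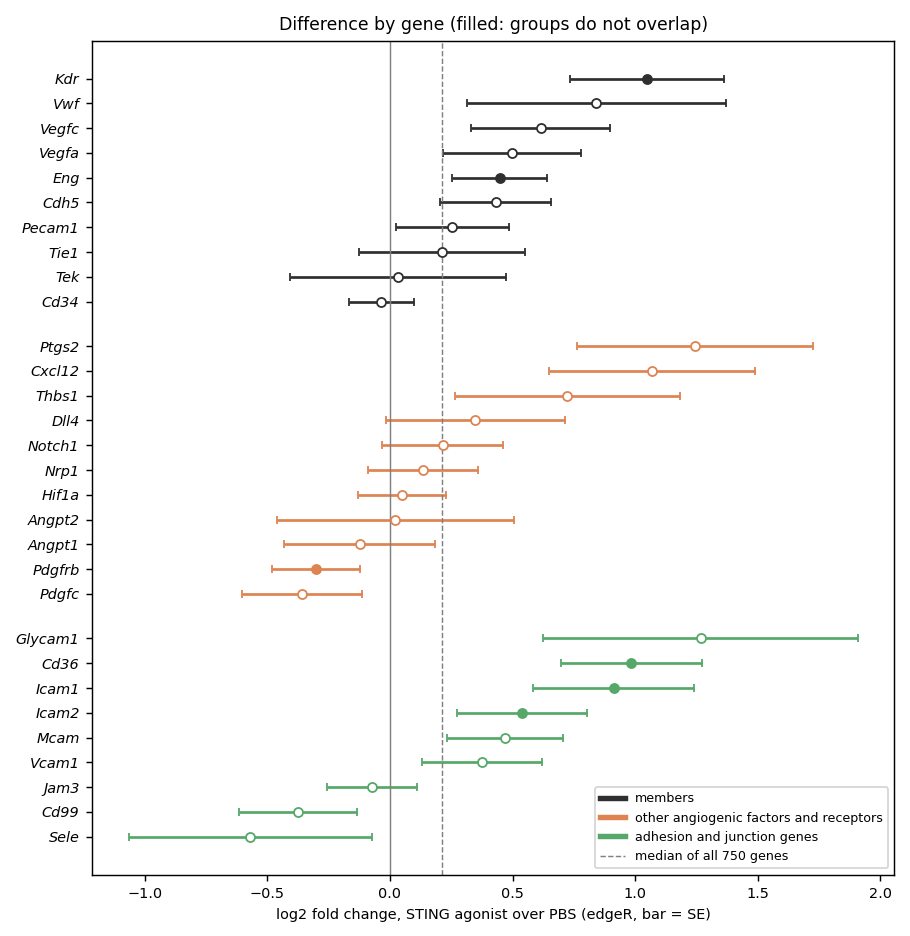
Log2 fold change (x axis, STING agonist over PBS, edgeR; bars are the SE) for the members, the other angiogenic factors and receptors, and the adhesion and junction genes (y axis); filled points mark groups that do not overlap and the dashed line the median of all 750 genes (0.21). Kdr (1.05) and Eng (0.45) are the filled members, and Pdgfrb (-0.30) is the filled gene on the negative side.

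Of 27 further angiogenic factors and receptors listed, 11 were on the panel, and their median log2 fold change was 0.13 (0.21 for all genes). At an adjusted p of 0.05 in edgeR 0 of 11 passed, and at an unadjusted p under 0.05 there were 2 higher (Ptgs2 and Cxcl12; 17.7% of the panel) and 0 lower (1.33%). Under TMM normalization the median was -0.09, with 1 higher (Cxcl12; 11.6% of the panel) and 2 lower (Pdgfc and Pdgfrb; 5.33%), and the same genes were found with DESeq2 size factors (10.8% and 6% of the panel). With the total count there were 1 higher (Ptgs2; 9.07%) and 1 lower (Pdgfrb; 4.13%). Ptgs2 encodes cyclooxygenase-2, which makes prostaglandins that promote vessel growth, and had 123, 219 and 192 normalized counts in the controls and 811, 211, 220 and 446 after treatment. Treated tumors 2 and 3 lay within or next to the range of the controls, and treated tumors 1 and 4 well above it. Its log2 fold change was 1.24 (SE 0.48, edgeR adjusted p = 0.223) and 0.72 without treated tumor 1, and its unadjusted p was above 0.05 without treated tumor 1 (0.0772), PBS control 1 (0.104) or PBS control 3 (0.0646). Cxcl12, a chemokine of stroma and endothelium, had 73.1, 82.8 and 256 normalized counts in the controls and 286, 233, 295 and 344 after treatment. PBS control 3 overlapped the treated tumors, and the log2 fold change was 1.07 (SE 0.42, edgeR adjusted p = 0.227) with it and 1.90 (edgeR adjusted p = 0.0382) without it; its adjusted p missed 0.05 in edgeR when any other sample was left out. Its unadjusted p in edgeR was above 0.05 without PBS control 1 (0.104), without PBS controls 2 and 4 (0.0981), without treated tumor 1 (0.0523), 3 (0.0515) or 4 (0.0579) and with the total count (0.0636), and the log2 fold change was 0.77 without PBS control 1.

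The angiopoietins, ligands of Tek, did not separate the groups. Angpt2, which destabilizes vessels and is released by activated endothelium, had 50.9, 316 and 158 normalized counts in the controls and 208, 194, 151 and 154 after treatment, so the controls spanned the treated tumors. Its log2 fold change of 0.02 (SE 0.48, edgeR adjusted p = 0.993) was -0.27 under TMM normalization, -0.42 without PBS control 1 and 0.75 without PBS controls 2 and 4. Angpt1, the stabilizing ligand made by mural cells, had a log2 fold change of -0.12 (SE 0.31). It was -0.41 under TMM normalization, -0.27 without PBS control 1, -0.01 without treated tumor 4 and 0.19 without PBS controls 2 and 4. Thbs1, an inhibitor of vessel growth, had 0.72 (SE 0.46), which was 0.33 without PBS control 1 and 0.95 without PBS controls 2 and 4. Pdgfrb, the receptor of pericytes and fibroblasts, had 124, 132 and 111 normalized counts in the controls and 107, 96.6, 88.9 and 103 after treatment. All 4 treated tumors lay below all controls (11 genes of the panel, 1.47%, did), with a log2 fold change of -0.30 (SE 0.18, edgeR adjusted p = 0.395) and p = 0.029 in the exact permutation test. The log2 fold change was -0.57 under TMM normalization (unadjusted p = 0.0209) and -0.51 with the total count (0.0214). Under TMM normalization that of Pdgfc was also -0.57 (0.0153), and without PBS control 3 it was -0.03 on the housekeeping scale. The remaining genes of the list, Pdgfc, Nrp1, Notch1, Dll4 and Hif1a, had log2 fold changes of -0.36 to 0.35 with overlapping groups, and under TMM normalization Nrp1 (-0.09), Notch1 (-0.01) and Hif1a (-0.22) turned negative. The highest of them, Dll4, had 0.11 under TMM normalization, 0.12 without PBS control 1, 0.14 without treated tumor 1 and 0.52 without PBS control 3.

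Of 18 listed adhesion and junction genes of endothelium, 9 were on the panel, with a median log2 fold change of 0.47, or 0.25 under TMM normalization. In edgeR 0 passed an adjusted p of 0.05, 2 had an unadjusted p under 0.05 (Icam1 and Cd36, both higher, beside 17.7% of the panel) and 0 were lower, while 3 (Icam1, Icam2 and Cd36) had all 4 treated tumors above all controls (16.8% of the panel). The unadjusted p of Icam1 was above 0.05 with the total count (0.0662), without PBS controls 2 and 4 (0.0655) and without treated tumor 4 (0.0627). Icam1, which arrests leukocytes on activated endothelium and is also carried by leukocytes and tumor cells, had 77.7, 42.0 and 82.1 normalized counts in the controls and 131, 97.8, 95 and 184 after treatment. Icam2, a ligand for leukocyte integrins on resting endothelium and platelets, had 42.6, 44.3 and 58.4 in the controls and 92.3, 64.8, 61.3 and 63.5 after treatment. Cd36, the thrombospondin receptor of capillary endothelium and macrophages, had 86.0, 100 and 144 in the controls and 305, 155, 178 and 236 after treatment. Treated tumor 1 was the highest for Icam2 and Cd36, and the log2 fold changes were 0.91 (SE 0.33) for Icam1, 0.54 (SE 0.27; 0.30 under TMM normalization) for Icam2 and 0.98 (SE 0.29) for Cd36. Vcam1, the receptor for VLA-4 on inflamed endothelium, had 0.38 (SE 0.25) with overlapping groups, 0.16 under TMM normalization, 0.60 without PBS control 1 and 0.13 without PBS controls 2 and 4. Mcam had 0.47 (SE 0.24), 0.25 under TMM normalization and 0.77 without PBS control 3 (unadjusted p = 0.00638). Jam3 had -0.07, -0.31 under TMM normalization and 0.02 without PBS control 3. Cd99 had -0.38, -0.60 under TMM normalization and -0.24 without treated tumor 1. Without treated tumor 2 Cd99 was lower at an unadjusted p under 0.05, as was 1.2% of the panel. Sele and Glycam1, an endothelial selectin and a selectin ligand of lymph node venules, had 1 to 6 and 1 to 5 raw counts, below the background, so their values carry no direction.

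Setting each gene against the mean of Pecam1, Cdh5, Tie1 and Tek in the same tumor gives its level beside these endothelial genes, of which Tek lies near the background. Of the 26 member, angiogenic and adhesion genes set against this mean, 0 had groups that did not overlap. On the log2 scale this ratio for Kdr averaged -0.51 (SD 0.58, n = 3) under PBS and 0.33 (SD 0.57, n = 4) with the agonist, a difference of 0.845, and treated tumor 3 (-0.42) lay among the controls (-0.30, -1.17 and -0.08). The differences were 0.235 for Eng, 0.893 for Vwf, 1.08 for Cxcl12, 0.691 for Icam1 and -0.523 for Pdgfrb. With Tek left out of the mean, a choice made after seeing the data, 1 of 26 genes, Pdgfrb, had groups apart, lower after treatment, and the differences were 0.731 for Kdr, 0.121 for Eng and -0.636 for Pdgfrb.

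The members did not vary as a block between tumors of the same treatment. With the group means removed, Pearson's r over the 7 samples was positive for 25 and negative for 20 of the 45 pairs of members, with a median of 0.07. These are descriptions of 7 samples that share a scale, with no p. Tie1 and Vwf (0.87) and Vwf and Vegfa (0.88) varied together, all of them low in PBS control 1. Kdr and Eng (0.71) and Kdr and Vegfc (0.69) varied together, and Cdh5 ran opposite to Eng (-0.85) and to Vegfc (-0.89). Pecam1 also ran opposite to Eng (-0.71) and to Kdr (-0.57).

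**Figure D3:**
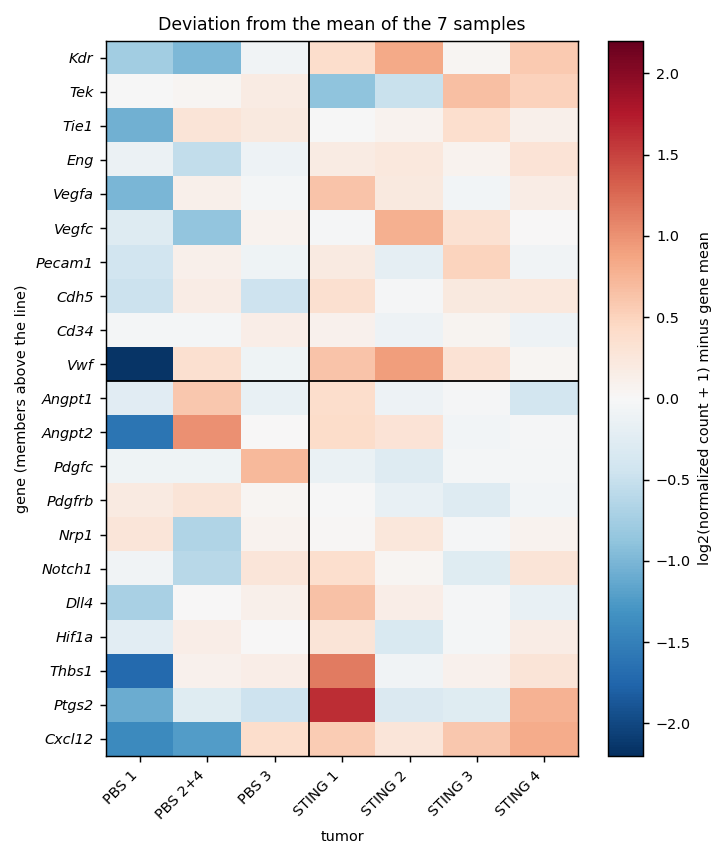
Deviation of each gene (y axis) in each sample (x axis) from its mean over the 7 samples, in log2(normalized count + 1), red above and blue below; members are above the horizontal line and PBS controls left of the vertical line. PBS control 1 is the bluest sample for Tie1, Vwf and Vegfa, and controls 2 and 4 for Kdr, Eng and Vegfc.

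Likeness to the mean of Pecam1, Cdh5, Tie1 and Tek was taken as Pearson's r over the 7 samples with the group means removed. It describes variation within the groups only. Tek, 1 of the 4 genes with equal weight in this mean, had 7 to 26 raw counts, near the background. No likeness without Tek is given. Among 514 panel genes with a mean of at least 20 counts, those most like this mean were Mr1 (r = 0.99), which presents antigen to MAIT cells, Lamp2 (0.98), a lysosomal membrane protein, Pvrl2 (0.96), an adhesion molecule, and Nfatc4 (0.93). The least like it were Cx3cr1 (-0.97), a chemokine receptor of monocytes and macrophages, and the interferon-stimulated genes Isg15 (-0.92) and Ifih1 (-0.92). They are the extremes of 514 values over 7 samples. None of these had an unadjusted p under 0.05 in edgeR on the housekeeping scale with all samples; their log2 fold changes lay between -0.48 (Nfatc4) and 0.93 (Cx3cr1). The unadjusted p of Mr1 was 0.0245 under TMM normalization, and without PBS control 1 those of Isg15 and Cx3cr1 were 0.0439 and 0.00974, with a log2 fold change of 1.89 for Cx3cr1. Without PBS controls 2 and 4 the log2 fold change was 0.54 for Cx3cr1 and -0.16 for Nfatc4, and under TMM normalization it was -0.74 for Nfatc4.

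Markers of other cell types were counted in the same tumors. Of 9 leukocyte markers listed, 8 were on the panel, with a median log2 fold change of 0.81 (0.60 under TMM normalization, 1.35 without PBS control 3 and 0.50 without PBS controls 2 and 4), 4 higher at an unadjusted p under 0.05 (Ptprc, Emr1, Itgb2 and Cd3e; 17.7% of the panel) and 5 with all treated tumors above all controls (16.8%). With the total count (9.07% of the panel higher) and without treated tumor 4 (10.5%) the genes at an unadjusted p under 0.05 were 2, Ptprc and Emr1. The log2 fold changes were 1.25 (SE 0.38) for Ptprc, 1.29 (SE 0.43) for Emr1, 0.66 (SE 0.23) for Itgb2 and 1.19 (SE 0.46) for Cd3e. The summed counts of the list, of which Cd68 holds the most, were 1374, 801 and 1702 in the controls and 2517, 1643, 1725 and 2465 after treatment. Ptprc, the gene of CD45, had 108, 42.0 and 111 normalized counts in the controls and 257, 166, 140 and 267 after treatment. With the group means removed, a comparison chosen after the values were seen, Eng varied with Ptprc (r = 0.90) and Kdr less so (0.55), while Pecam1 (-0.54), Cdh5 (-0.57), Tie1 (-0.52) and Vwf (-0.54) ran opposite to it. The remaining members lay between: Vegfc (0.25), Cd34 (0.19), Tek (-0.15) and Vegfa (-0.21). The part of leukocytes in the values of Eng and Kdr was not tested.

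Of 10 markers of mural cells and fibroblasts, 6 were on the panel (Pdgfrb, Cspg4, Mcam, Thy1, Col1a1 and Col3a1), with a median log2 fold change of 0.06, or -0.18 under TMM normalization. At an unadjusted p under 0.05 in edgeR 1 was higher (Col1a1; 17.7% of the panel) and 1 lower (Col3a1; 1.33%). Without PBS control 1 or without treated tumor 1 there were 0 of either. Under TMM normalization 0 were higher (11.6%) and 2 lower (Col3a1 and Pdgfrb; 5.33%). The genes of the fibrillar collagens had log2 fold changes of opposite sign. Col1a1 had 938, 536 and 1380 normalized counts in the controls and 1655, 1843, 1135 and 1691 after treatment (log2 fold change 0.73, SE 0.31, edgeR adjusted p = 0.243; 0.54 under TMM normalization, 1.10 without PBS control 3 and 0.45 without PBS controls 2 and 4), and Col3a1 had 9268, 8066 and 7156 in the controls and 5895, 6671, 5173 and 6660 after treatment (-0.42, SE 0.16, edgeR adjusted p = 0.217; -0.68 under TMM normalization). For Col3a1 every treated tumor lay below all controls, as for 1.47% of the panel. Cspg4, which encodes the pericyte proteoglycan NG2, was at 72.2, 38.5 and 51.9 in the controls and 35, 70.9, 60.3 and 58.2 after treatment. The summed counts of the 6 genes, mostly Col3a1, were 10654, 9057 and 9071 in the controls and 8084, 9004, 6800 and 8894 after treatment. Their part in the values of the endothelial genes was not tested.

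Of 7 markers of lymphatic endothelium and mesothelium, only Lyve1 and Msln were on the panel. Lyve1, a hyaluronan receptor of lymphatic endothelium and of some macrophages, had 114, 65.3 and 160 normalized counts in the controls and 29.2, 70.9, 107 and 38.8 after treatment, and Msln, of mesothelium, had a log2 fold change of -0.45 (SE 0.31). In edgeR 0 of these genes had an unadjusted p under 0.05 on the housekeeping scale with all samples. Both did under TMM normalization, where 5.33% of the panel was lower. On the housekeeping scale Msln was lower at this threshold without PBS control 1 (1.47% of the panel). Lyve1 was lower at it without PBS controls 2 and 4 (2.27%) and without treated tumor 3 (2.8%). The log2 fold change of Msln was -0.73 under TMM normalization (unadjusted p = 0.0492), -0.72 without PBS control 1 (0.0293) and -0.06 without PBS controls 2 and 4. The sums of both genes were 208, 302 and 309 in the controls and 140, 163, 235 and 176 after treatment. Of the 4 genes listed for tumor epithelium 0 had an unadjusted p under 0.05 on the housekeeping scale with all samples. Their log2 fold changes were positive for 2 and negative for 2: 0.64 for Muc1, 0.01 for Cdkn1a, -0.40 for Epcam and -0.70 for Cdh1. Cdh1 was lower at this threshold under TMM normalization (5.33% of the panel). On the housekeeping scale it was lower without PBS controls 2 and 4 (2.27%). Cdkn1a, a cell cycle inhibitor that is not restricted to epithelium, holds most of the counts of these 4 genes, so their sum is not given.

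Hepatocyte markers were high in treated tumor 4. Of 12 markers listed, 9 were on the panel, with a median log2 fold change of 1.64 (-0.06 without treated tumor 4), 2 higher at an unadjusted p under 0.05 (Ambp and Serping1; 17.7% of the panel) and 1 with all treated tumors above all controls (Serping1; 16.8%). Without treated tumor 4 Serping1 was the 1 gene higher and C8b the 1 lower at an unadjusted p under 0.05 (10.5% and 1.33% of the panel). Ambp had 762 normalized counts in treated tumor 4 and 2.44 to 11.7 elsewhere. Apoe had 6444 in treated tumor 4 but also 1104 to 4097 elsewhere, and Serping1 had 564 and 110 to 339. The sums of the list, mostly Apoe, were 4258, 1244 and 2709 in the controls and 3873, 3178, 3628 and 8310 after treatment. Outside treated tumor 4 these sums follow Apoe and not Ambp, so they are no measure of hepatocyte RNA there. Without treated tumor 4 the log2 fold change was 1.01 for Kdr and 0.41 for Eng, whose unadjusted p was then 0.111.

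**Figure D4:**
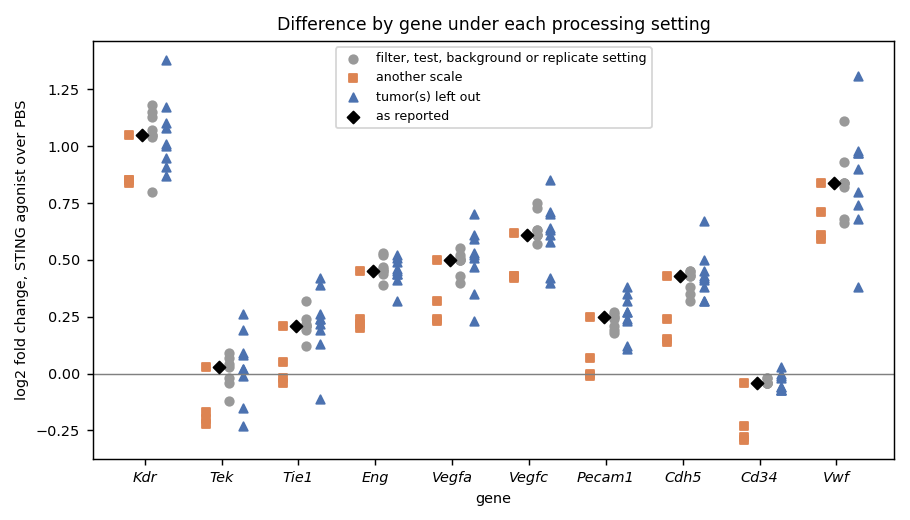
Log2 fold change (y axis, STING agonist over PBS) of each member (x axis) as reported (black) and under each of the alternatives: another scale (squares), another filter, test, background or replicate setting (circles), or 1 or 2 tumors left out (triangles). Kdr stays between 0.80 and 1.38, Tek, Tie1, Pecam1 and Cd34 cross 0, and Vwf spans 0.38 to 1.31.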

How the data were processed

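Per the labels and the study's methods, whole tumor RNA was extracted with TRIzol and measured on the nCounter mouse panel. The authors deposited whole-number counts of 784 probes per tumor (750 genes, 20 housekeeping, 8 negative and 6 positive controls), neither scaled nor background-subtracted, with a lowest count of 1. Normalization to housekeeping genes was a later step of theirs, and the software version is not given in the sources used here. Groups came from the sample labels, dose and schedule from the labels and methods.

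Library sizes were set from the housekeeping geometric mean, PBS controls 2 and 4 were averaged and rounded, and each gene was tested in edgeR 4.0.16 under R 4.3.3 (glmQLFit and glmQLFTest, the quasi-likelihood test) without covariate or filter, with Benjamini-Hochberg adjustment over 750 genes. The script was tested on simulated data. Single values were compared by a two-sided exact permutation test on log2(normalized count + 1). Housekeeping scaling assumes that those genes do not respond to treatment, and the scales taken from most panel genes remove a shift that these share. Counts near the background carry a large counting error; 606 genes had a mean above it and 517 a mean of at least 20.

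Alternatives were TMM, DESeq2 1.42.0 size factors, total count and housekeeping genes of at least 100 counts as scales, filters at 20 counts or at the background, background subtraction, DESeq2's Wald test, limma 3.58.1 with pseudocounts of 1 and 20, other uses of controls 2 and 4, a replicate block and each tumor left out. Genes named are all members, all panel genes of the angiogenic and adhesion lists, the gene with the most counts and those at an unadjusted p under 0.05 of the cell type lists, and the 5 genes most and 3 least like the endothelial mean. Itga2b, Itgb3, Cspg4, Thy1, Lyve1, Epcam, Cdh1, Muc1 and C8b were named after their values were seen. The members and lists were chosen with earlier results of these data known, so no test of a list was made. Promoter sequences came from RefSeq (GRCm38.p6), and of the motifs searched in them the interferon-stimulated response element is left out, as are the results of 2 genes, 1 of them among the 5 above, that are not reported here. Figures were drawn with Python 3.11.15 and matplotlib 3.10.9.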

Additional observations from a re-analysis of the deposited data

Results flagged for a closer look

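For each named gene, the gap among the 4 treated tumors between the most extreme tumor and its nearest neighbor was divided by the whole range of the group and compared with Dixon's 95% limit. Of 50 genes tested, 4 passed it, and chance gives about 2.5. Icam2 had 92.3 normalized counts in treated tumor 1 and 61.3 to 64.8 in the others (0.888). Ppbp had 55.2 in treated tumor 3 and 22.9 to 25.7 in the others (0.915). Cdkn1a had 388 in treated tumor 1 and 234 to 249 in the others (0.899). Ambp had 762 in treated tumor 4 and 2.44 to 11.7 in the others (0.988). None of the 10 endothelial and angiogenesis genes was among them. The PBS controls, with 3 samples, were not tested, so the low values of PBS control 1 for Tie1 and Vwf have no such test.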

How the results depend on the processing

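Of 1040 values of 50 named genes under 21 alternatives, 975 kept their direction and their side of the threshold, 59 in 15 genes turned sign and 6 came past an adjusted p of 0.05. Kdr, Eng, Vegfa, Vegfc, Cdh5 and Vwf kept a positive sign throughout. Passing were Kdr (1.04), Cd36 (0.98), Emr1 (1.30), Ptprc (1.25) and Serping1 (1.20) with DESeq2's Wald test and Cxcl12 (1.90) without PBS control 3. Under TMM normalization the sign turned for Pecam1 (-0.0013), Tek (-0.20), Tie1 (-0.02), Angpt2 (-0.27), Nrp1 (-0.09), Notch1 (-0.01), Hif1a (-0.22), Cdkn1a (-0.26) and Lamp2 (-0.23). With DESeq2 size factors the sign turned for Pecam1 (-0.01), Tek (-0.22), Tie1 (-0.04), Angpt2 (-0.27), Nrp1 (-0.10), Notch1 (-0.03), Hif1a (-0.23), Cdkn1a (-0.27) and Lamp2 (-0.25). With the total count the sign turned for Tek (-0.17), Angpt2 (-0.11), Nrp1 (-0.08), Notch1 (-0.01), Hif1a (-0.15), Cdkn1a (-0.19) and Lamp2 (-0.17). With background subtracted the sign turned for Sele (0.81). In limma with a pseudocount of 1 the sign turned for Tek (-0.12). In limma with a pseudocount of 20 the sign turned for Tek (-0.02). With all 8 tumors as separate samples the sign turned for Angpt2 (-0.25), Cdkn1a (-0.06) and Lamp2 (-0.0008). Without PBS controls 2 and 4 the sign turned for Angpt1 (0.19), Nrp1 (-0.09), Ppbp (0.07) and Pvrl2 (0.08). With single tumors left out the sign turned at least once for Tek (-0.23 to 0.26), Tie1 (-0.11 to 0.39), Angpt2 (-0.42 to 0.09), Hif1a (-0.05 to 0.16), Cdkn1a (-0.20 to 0.08), Lamp2 (-0.03 to 0.05), Cd34 (-0.07 to 0.03), Jam3 (-0.14 to 0.02) and Pvrl2 (-0.14 to 0.05), given as the lowest to highest log2 fold change. The members' count at an unadjusted p under 0.05 (2) was 1 under TMM normalization (16.9% of the panel), DESeq2 size factors (16.8%) and the total count (13.2%), 4 without PBS controls 2 and 4 (14.3%), 3 with all 8 tumors as separate samples (26.8%), and 1 to 2 with single tumors left out (11.2% to 21.3%). Their median log2 fold change (0.44) was 0.18 under TMM normalization, 0.17 with DESeq2 size factors, 0.24 with the total count and 0.27 to 0.46 with single tumors left out. The panel count at an adjusted p under 0.05 (0) was 52 with DESeq2's Wald test and 0 to 7 with single tumors left out (1 without PBS control 3, 7 without treated tumor 3), and at an unadjusted p under 0.05 (143) it was 84 to 160 with single tumors left out and 201 with all 8 tumors as separate samples. The cause was not tested. The filters on low counts leave out the lowest genes, and Tek has no value at a minimum of 20 counts. DESeq2's Wald test gave no adjusted p for Ambp, Sele and Glycam1, and Glycam1 could not be fitted with background subtracted, so these 4 values are not counted. The count of genes with groups apart when set against the mean of Pecam1, Cdh5, Tie1 and Tek (0) was 1 with Tek left out of the mean, an alternative chosen after seeing the data.

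No pairing of the tumors by replicate number was seen, but the check cannot decide on a pairing, because PBS controls 2 and 4 are near-identical. The deviations of same-numbered tumors correlated over 517 genes at -0.06, -0.08, -0.28 and -0.13, and 0 of 4 controls were closest to their own number. With the replicate block and all 8 tumors as separate samples, the panel count was 172 at an unadjusted p under 0.05 and 0 at an adjusted p under 0.05, the 2 members at an unadjusted p under 0.05 were Kdr (1.18) and Vegfc (0.75), and the sign turned for Tek (-0.04), Angpt2 (-0.02), Hif1a (-0.01) and Cdkn1a (-0.07). Depth limits Tek, PBS control 1 of Vwf, Sele and Glycam1, whose counts lie near or below the background.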
